A study of Mus musculus with 4 samples.

Results

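The genes described are 10 components of the pathway by which the ubiquitin ligase scaffold Cul3 and its adaptors act on the WNK kinases, together with the salt cotransporters at the end of that pathway: Cul3, Klhl3, Klhl2, Wnk1, Wnk4, Stk39, Oxsr1, Cab39, Slc12a1 and Slc12a3. They were chosen by gene symbol, and for a gene with several rows on the array the row of highest mean was used. All 10 were found among the 19934 genes tested. Transcripts were measured in whole kidney of Usp2 knockout mice (Usp2-KO) and wild-type littermates (WT), to ask how the loss of Usp2, a protease that removes ubiquitin from proteins, bears on kidney gene expression. All mice were C57BL6/N males of 12 weeks that had spent 3 weeks in a cycle of 12 h light and 12 h dark, and kidneys were taken at Zeitgeber time 12, which the labels give as the daily peak of Usp2 expression. The kidneys of 6 littermate pairs gave 2 RNA pools for each genotype, 3 mice to a pool, and each Usp2-KO pool held the littermates of the WT pool of the same number. Each array thus measures the mean of several mice, and the p-values take account of the spread between pools and not between single animals. Which exons of Usp2 were removed is not given in the sources used here.

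In the distal nephron, Cul3 is the scaffold of a ubiquitin ligase, and Klhl3 and Klhl2 are adaptors that bring it the kinases Wnk1 and Wnk4, which are then ubiquitinated and degraded. WNK kinases that escape this phosphorylate the related kinases SPAK (gene Stk39) and OSR1 (gene Oxsr1), whose activity is raised by the scaffold MO25 (gene Cab39). SPAK and OSR1 phosphorylate and activate the cotransporters NKCC2 (gene Slc12a1) of the thick ascending limb and NCC (gene Slc12a3) of the distal convoluted tubule, the targets of loop and thiazide diuretics. Much of this control acts on proteins and their phosphorylation, neither of which an expression array measures.

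The stretches before the transcription start of 4 members are shown, because they are the member with the largest difference between genotypes (Cul3), the other member with an unadjusted p under 0.05 (Oxsr1) and both cotransporters. Each run is the 250 bases before the start, 5′ to 3′ on the strand of the gene, from RefSeq on GRCm38.p6. The places are chr1:80340691-80340940 on the minus strand for Cul3, chr9:119322428-119322677 on the minus strand for Oxsr1, chr2:125152350-125152599 on the plus strand for Slc12a1 and chr8:94328958-94329207 on the plus strand for Slc12a3. Capitals mark the motif named for each gene below.
Cul3: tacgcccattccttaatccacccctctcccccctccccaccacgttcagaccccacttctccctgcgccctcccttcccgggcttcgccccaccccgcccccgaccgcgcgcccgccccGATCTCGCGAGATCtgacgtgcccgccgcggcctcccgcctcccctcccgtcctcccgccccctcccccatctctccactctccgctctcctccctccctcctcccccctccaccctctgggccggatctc
Oxsr1: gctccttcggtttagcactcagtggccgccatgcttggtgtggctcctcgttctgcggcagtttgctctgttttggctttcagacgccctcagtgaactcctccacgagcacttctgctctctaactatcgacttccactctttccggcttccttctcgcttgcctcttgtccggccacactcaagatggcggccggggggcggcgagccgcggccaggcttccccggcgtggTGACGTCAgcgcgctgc
Slc12a1: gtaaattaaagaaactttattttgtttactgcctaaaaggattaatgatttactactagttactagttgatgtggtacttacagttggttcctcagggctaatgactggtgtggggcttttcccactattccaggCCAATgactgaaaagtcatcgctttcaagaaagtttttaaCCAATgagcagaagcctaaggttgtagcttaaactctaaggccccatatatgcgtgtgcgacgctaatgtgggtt
Slc12a3: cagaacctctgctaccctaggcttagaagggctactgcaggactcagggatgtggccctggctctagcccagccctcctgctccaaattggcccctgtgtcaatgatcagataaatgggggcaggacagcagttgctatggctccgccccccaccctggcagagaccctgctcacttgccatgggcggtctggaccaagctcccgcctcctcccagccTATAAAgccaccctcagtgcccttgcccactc

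All 10 members were matched in the RefSeq table of 32851 promoters. Letters were searched on both strands, and the motifs were chosen after the windows had been searched. Marked in Cul3 is a palindrome of 14 bases, GATCTCGCGAGATC, the longest stretch of the window that is its own reverse complement, which begins 131 bases before the start. Its central 10 letters, TCTCGCGAGA, are held by 0.39% of the windows in the table and by no other member. A palindrome of at least 14 bases of any letters is found in 3.16% of windows, and Klhl2 and Stk39 have one of 14 bases as well. The cAMP response element TGACGTCA, marked in Oxsr1, begins 17 bases before its start and is held by 1.55%. Slc12a1 has the CCAAT box CCAAT at 115 and 75 bases before its start, letters that 33.8% of windows hold. Slc12a3 also holds the CCAAT box, on the other strand at 164 bases before its start, where it is not marked. Slc12a3 has the TATA box TATAAA at 32 bases before its start, held by 12.4% of windows, and it is the 1 member with these letters. The GC box GGGCGG was found in 8 of 10 members, all but Klhl3 and Slc12a1, and in 32.7% of all windows. Members and all windows were not matched for their content of G and C. Among the members only Slc12a1 (39.6%) lay below the median of 52.4% over the table, and Stk39 was highest at 82.4%. The E-box CACGTG, a motif bound by clock transcription factors, was in 0 of 10 members and in 6.02% of windows. None of the matches marked in capitals overlapped a match of another of these motifs, save that the palindrome of Cul3 holds its own central letters. The windows hold 4 CpG dinucleotides in Slc12a1 and 3 in Slc12a3, within the quartiles of 2 and 16 over the table, and 23 in Cul3 and 21 in Oxsr1, above them. A match is a description of letters and says nothing of binding in these kidneys.

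The data are 4 arrays with 28270 log2 values each, and array medians lay between 7.44 and 7.46. Usp2 itself checked the labels. Its log2 values were 11.63 and 11.71 in the WT pools and 7.65 and 7.60 in the Usp2-KO pools, so it fell by 4.04 (limma, adjusted p = 2.8e-08). Usp2 was the 1 gene of the 19934 with an adjusted p under 0.05, which is 0.00502% of genes. Kidney markers had high signal in every array, such as Slc34a1 and Lrp2 of the proximal tubule (means of 14.05 and 13.58) and Umod of the thick ascending limb (13.41). With 4 arrays, precision is limited throughout.

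Among the 10 members, the transcript of Cul3 stood highest in Usp2-KO kidney relative to WT, and 6 others were higher by 0.07 to 0.17 on the log2 scale. Klhl3, Wnk4 and Slc12a3 were lower by 0.06 or less. By limma without a block, 0 of 10 members had an adjusted p under 0.05. At an unadjusted p under 0.05 there were 2 (Cul3 and Oxsr1, both higher), where 9.11% of all genes lay under it in either direction, 5.22% as higher and 3.88% as lower. With the littermate block the unadjusted p of Oxsr1 by limma was 0.0657, and Cul3 was the 1 member under 0.05. The share of all genes under 0.05 was not counted in the blocked fit. The pools of the genotypes did not overlap for 6 members, 5 of them higher and 1 lower, where 38.9% of all genes did not overlap (19.8% higher and 19.1% lower). The median difference of the members was 0.11, against -0.01 over all genes. In whole kidney, fewer cells of a type and less RNA per cell cannot be told apart.

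**Figure D1:**
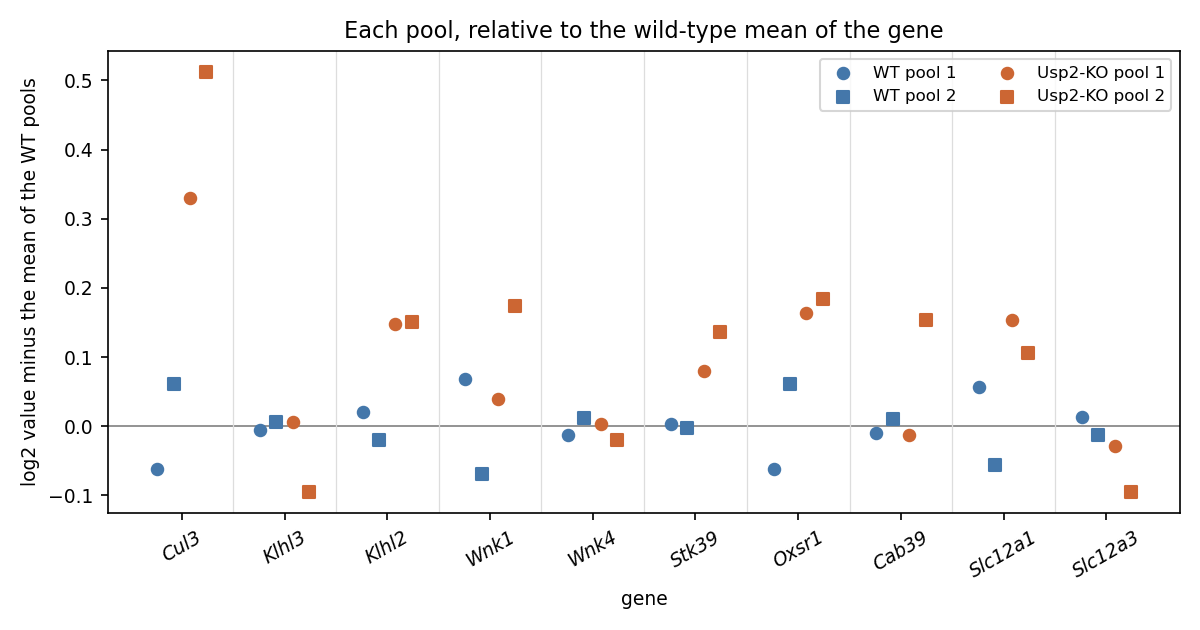
Log2 value of each pool minus the mean of the WT pools of that gene (vertical axis) for the 10 members (horizontal axis), with WT in blue and Usp2-KO in orange, and pool 1 as circles and pool 2 as squares. Both Usp2-KO pools of Cul3 lie above both WT pools, while all pools of Wnk4 lie close to the WT mean.

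Cul3 is the scaffold that joins the ubiquitin-transferring RING protein to the adaptors. Its log2 values were 9.45 and 9.58 in the WT pools and 9.85 and 10.03 in the Usp2-KO pools. Both Usp2-KO pools were thus above both WT pools, and the gap between the groups exceeded the distance between pools of either genotype. WT kidney had a mean of 9.52 ± 0.09 and Usp2-KO kidney one of 9.94 ± 0.13 (SD, n = 2 pools). The difference was 0.42 (SE 0.09, 95% confidence interval 0.22 to 0.62), or 1.34-fold, and limma gave an adjusted p of 0.286 over all genes. The littermate comparisons gave 0.39 for pool 1 and 0.45 for pool 2. With the littermate pools as a block, Cul3 had an adjusted p of 0.00728 by limma, in a fit that passed 0.768% of all genes (0.512% as higher and 0.256% as lower). The blocked fit leaves 1 residual degree of freedom against 90.6 from the prior, which gives all genes almost one common spread. Over all 13 alternatives that give Cul3 a value of its own, the adjusted p ranged from 0.00728 to 0.614 and the difference from 0.33 to 0.51. Permuting the genotype over the arrays gave an exact two-sided p of 0.333, the smallest that 2 pools against 2 allow.

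The adaptors Klhl3 and Klhl2 are related proteins that hold Cul3 by one end and the acidic stretch of the WNK kinases by the other. Klhl3 had log2 values of 10.34 and 10.36 in WT and 10.36 and 10.26 in Usp2-KO pools. The groups overlapped, with 3 of the 4 pools within 0.012 of each other and Usp2-KO pool 2 below them. The difference was -0.04 (SE 0.07, 95% confidence interval -0.21 to 0.12). Without Usp2-KO pool 2 it was 0.006. Klhl2 had 7.95 and 7.91 in WT and 8.08 in both Usp2-KO pools. Its groups did not overlap, and both Usp2-KO pools lay close together above both WT pools. The difference was 0.15 (SE 0.07, 95% confidence interval -0.01 to 0.31), and limma gave an adjusted p of 0.569. The pool 1 and pool 2 littermates differed by 0.13 and 0.17. Whether Klhl2 and Klhl3 differ in their response was not tested.

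The kinases Wnk1 and Wnk4 sense chloride and start the phosphorylation cascade. Wnk4 had log2 values of 10.67 and 10.70 in WT and 10.69 and 10.67 in Usp2-KO pools. These groups overlapped, and the difference of -0.0085 (SE 0.07, 95% confidence interval -0.17 to 0.15) was the smallest of the 10 members and was 0.0032 with the arrays centred on their medians. Wnk1 had 11.92 and 11.79 in WT and 11.89 and 12.03 in Usp2-KO pools in the row of highest mean. These groups overlapped as well, with Usp2-KO pool 1 below WT pool 1. The difference was 0.11 (SE 0.08, 95% confidence interval -0.08 to 0.30), made of -0.03 in the pool 1 littermates and 0.24 in the pool 2 littermates. It was 0.04 without WT pool 2 and 0.18 without WT pool 1.

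A second row of the array is also paired with Wnk1 and gave another picture. Its log2 values were 9.51 and 9.45 in the WT pools and 9.74 and 9.88 in the Usp2-KO pools. Here the groups did not overlap, and the difference was 0.33 (SE 0.08, 95% confidence interval 0.15 to 0.52, unadjusted p = 0.00367 and adjusted p = 0.456 by limma over all 28270 rows). The littermate comparisons gave 0.24 and 0.43. Within each array, the second row minus the first was -2.42 and -2.34 in the WT pools and -2.15 in both Usp2-KO pools, so the genotype differences of the rows are 0.23 apart. The annotation lists fewer Wnk1 transcripts for the second row than for the first. The kidney is known to make a short form of Wnk1 without the kinase domain beside the full-length form, but the tables used here do not say which form each row reads. With the mean of both rows the difference of Wnk1 was 0.22 (unadjusted p = 0.0225 and adjusted p = 0.451 by limma, its lowest adjusted p over the alternatives). In that fit 3 members, Wnk1 among them, had an unadjusted p under 0.05, so that count depends on the row used for Wnk1. The share of all genes under 0.05 was not counted in that fit.

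**Figure D2:**
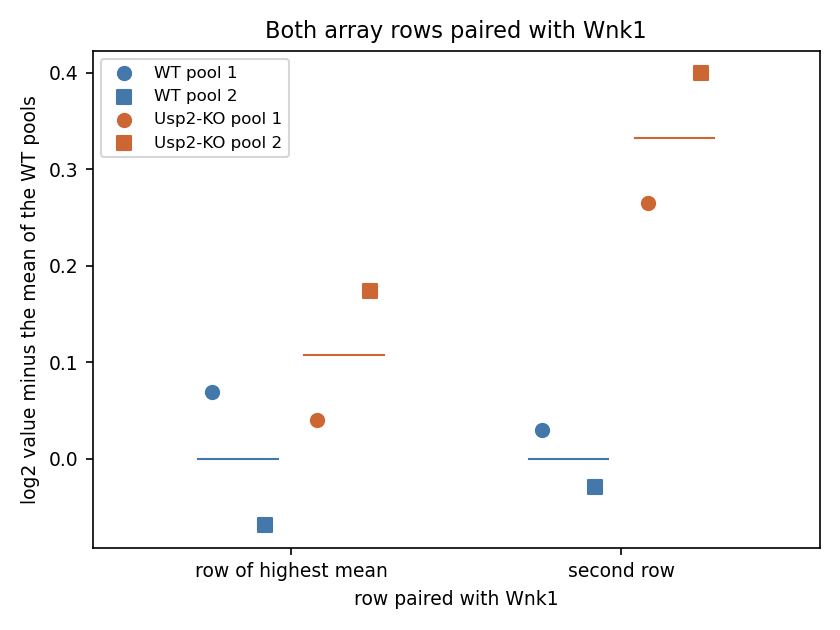
Log2 value of each pool minus the mean of the WT pools of the same row (vertical axis) for both rows paired with Wnk1 (horizontal axis), with WT in blue and Usp2-KO in orange and lines at the group means. In the row of highest mean the genotypes overlap, and in the second row both Usp2-KO pools lie above both WT pools, with a difference of 0.33.

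Of the kinases that WNKs activate and their scaffold, 0 of 3 passed the adjusted threshold by limma and 1 of 3 (Oxsr1) had an unadjusted p under 0.05, where 9.11% of all genes did. Oxsr1, which encodes OSR1, had log2 values of 9.06 and 9.18 in WT and 9.28 and 9.30 in Usp2-KO pools. Both Usp2-KO pools were above both WT pools. The difference was 0.17 (SE 0.08, 95% confidence interval 0.003 to 0.34), or 1.13-fold, with an adjusted p of 0.538 by limma, and it was 0.11 without WT pool 1. Its unadjusted p was 0.0466, and 0.0657 with the littermate block. Oxsr1 lies on chromosome 9, as Usp2 does, and whether its place bears on its difference was not tested. Stk39, which encodes SPAK, had 9.41 and 9.40 in WT and 9.49 and 9.54 in Usp2-KO pools. These groups did not overlap, and the WT pools were nearly equal. The difference of Stk39 was 0.11 (SE 0.07, 95% confidence interval -0.05 to 0.27), with 0.08 and 0.14 in the littermate comparisons.

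Cab39, which encodes the scaffold MO25, had log2 values of 9.79 and 9.81 in WT and 9.79 and 9.95 in Usp2-KO pools. Usp2-KO pool 2 stood above the other pools, which lay close together. The difference was 0.07 (SE 0.08, 95% confidence interval -0.11 to 0.25), and it was -0.01 without Usp2-KO pool 2. A second row paired with Cab39 had a lower signal, with means of 6.97 in WT and 7.02 in Usp2-KO kidney, overlapping groups and a difference of 0.04 (SE 0.10).

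The cotransporters reabsorb sodium with chloride, NKCC2 together with potassium in the thick ascending limb and NCC in the distal convoluted tubule. Slc12a1, which encodes NKCC2, had log2 values of 12.36 and 12.24 in WT and 12.45 and 12.41 in Usp2-KO pools. Both Usp2-KO pools were above both WT pools. The difference was 0.13 (SE 0.08, 95% confidence interval -0.04 to 0.30) with an adjusted p of 0.646 by limma, and it was 0.07 without WT pool 2. Slc12a3, which encodes NCC, had 13.19 and 13.16 in WT and 13.15 and 13.08 in Usp2-KO pools. It was the 1 member whose Usp2-KO pools both lay below both WT pools. The difference was -0.06 (SE 0.07, 95% confidence interval -0.22 to 0.10), with -0.04 and -0.08 in the littermate comparisons, and it was -0.03 without Usp2-KO pool 2. The cotransporters therefore had differences of opposite sign, each with an interval that holds 0, and whether they differ from each other was not tested.

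**Figure D3:**
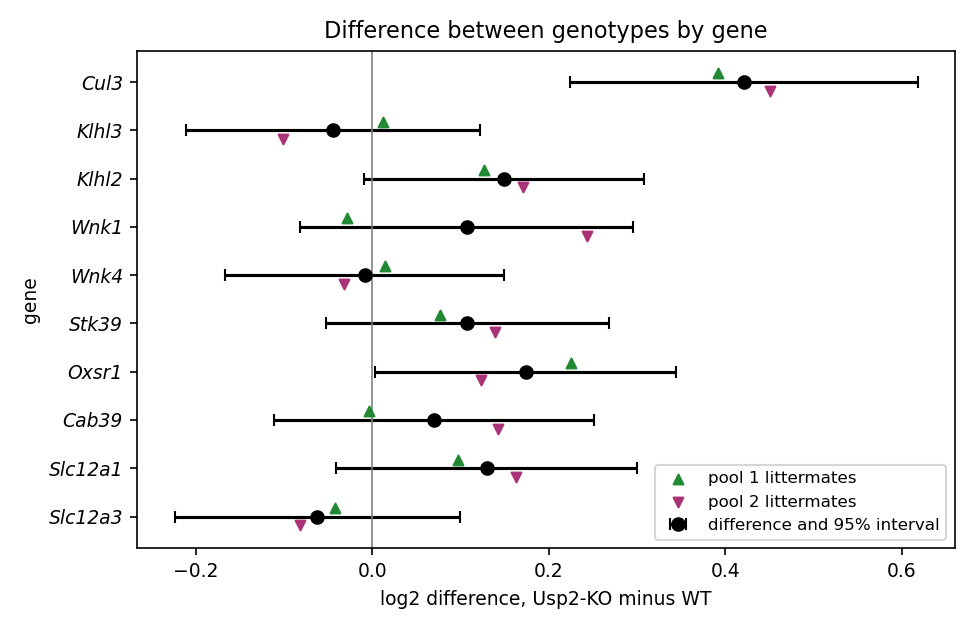
Log2 difference of Usp2-KO minus WT (horizontal axis) for the 10 members (vertical axis), with black points and bars for the difference and its 95% confidence interval from limma and triangles for the pool 1 and pool 2 littermates. The intervals of Cul3 (0.22 to 0.62) and Oxsr1 (0.003 to 0.34) lie above 0, before any adjustment for the number of genes, and the others hold 0.

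The members' signal differed little between pools of one genotype. The median distance between the WT pools was 0.03 for the members and 0.07 for all genes, and between the Usp2-KO pools it was 0.06 and 0.09. Members and all genes are not matched for signal here. Klhl2, the member of lowest mean signal, stood above 55.1% of all genes, which were not filtered. The widest among members were 0.14 for Wnk1 in WT and 0.18 for Cul3 in Usp2-KO kidney. In the pool 1 littermates the members had a median difference of 0.05, and in the pool 2 littermates 0.14. In both comparisons 5 of 10 members were higher (Cul3, Klhl2, Stk39, Oxsr1 and Slc12a1), where 26.1% of all genes were.

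Genes that serve the Cul3 ligase came from a list of 16, of which 15 were measured, and included the RING protein, the enzymes that attach the activating modifier Nedd8 to cullins and the COP9 signalosome that removes it. By limma 0 of 15 passed the adjusted threshold in either direction, and 2 were higher and 0 lower at an unadjusted p under 0.05, where 5.22% of all genes were higher and 3.88% lower. The list had 11 higher and 4 lower, against 9469 higher and 10465 lower over all genes, with a median difference of 0.06 against -0.01 over all genes. Of the 9 signalosome subunits, 5 were higher and 4 lower, and apart from Cops2 they lay between -0.08 for Cops7b and 0.10 for Cops5. The 4 lower genes of the list were all subunits of the signalosome (Cops7b, Cops7a, Cops4 and Gps1), though Gps1 was at 0.0072 with the arrays centred on their medians, and only Cops7b of these had groups that did not overlap. Cops2, the subunit of smallest p, had log2 values of 8.49 and 8.74 in WT and 8.85 and 9.20 in Usp2-KO pools. The Usp2-KO pools were above the WT pools, though the pools of each genotype lay well apart. Cops2 differed by 0.41 (SE 0.12, adjusted p = 0.383 by limma). With the littermate block its adjusted p was 0.00981, and over its alternatives it ranged from 0.00981 to 0.798. It was at 0.24 without Usp2-KO pool 2.

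The next genes of the list by p did not pass either. Nae1 and Uba3, the subunits of the enzyme that activates Nedd8, differed by 0.19 (SE 0.08) and 0.20 (SE 0.09). Dcun1d1, which helps to join Nedd8 to cullins, differed by 0.27 (SE 0.13), made of 0.13 and 0.41 in the littermate comparisons. Without Usp2-KO pool 2, Nae1 was at 0.12, Uba3 at 0.07 and Dcun1d1 at 0.05, so their values rest in large part on that pool. Nedd8 itself differed by 0.14 (SE 0.07). Rbx1, the RING protein, and Cand1, which exchanges the adaptors of cullins, had overlapping groups and differed by 0.06 and 0.02, and Cand1 was at -0.01 with quantile normalization repeated.

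Of 12 listed genes around the WNK and SPAK kinases, 11 were measured, and 0 had an adjusted or unadjusted p under 0.05 by limma. There were 7 higher and 4 lower, with a median of 0.06. The pools of the genotypes did not overlap for 7 of 11, 6 of them higher and 1 lower, where 38.9% of all genes did not overlap (19.8% higher and 19.1% lower). Cab39l, the relative of Cab39, differed by 0.16 (SE 0.07), and the calcineurin subunits Ppp3cb and Ppp3r1 differed by 0.16 and 0.12. Calcineurin is a phosphatase that acts in this pathway on Klhl3 and NCC. Ppp1ca, a catalytic subunit of protein phosphatase 1, differed by -0.13 (SE 0.07), with both Usp2-KO pools below the WT pools. Ppp3r1 was at 0.06 without Usp2-KO pool 2.

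The other Slc12 genes were measured for 6 of 7. By limma 0 of them had an adjusted or unadjusted p under 0.05, and for all 6 the groups overlapped, where 38.9% of all genes did not overlap. Their median was 0.03, and the widest differences were 0.14 for Slc12a2, which encodes the cotransporter NKCC1, and -0.08 for Slc12a4. Slc12a2 was at 0.006 without WT pool 2, and Slc12a4 ran from -0.14 to -0.03 with a pool left out. Of 6 listed potassium and chloride channel genes of the distal nephron, 4 were measured, 0 had an adjusted or unadjusted p under 0.05, and the median was 0.05.

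**Figure D4:**
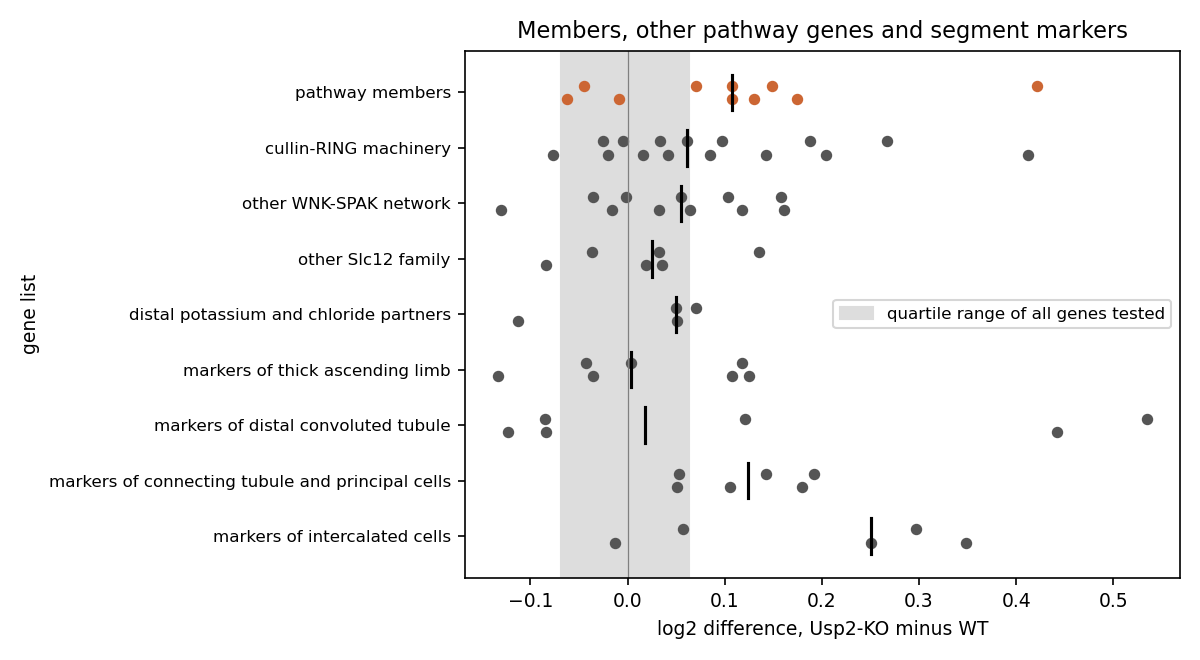
Log2 difference of Usp2-KO minus WT (horizontal axis) for the members (orange), other genes of the pathway and segment markers (grey), 1 point per gene with the list median as a black line (vertical axis: list). The shaded band runs from the lower to the upper quartile of all genes tested, -0.07 to 0.06, and Cul3 and Cops2 lie to the right of the other pathway genes.

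Markers of the segments that hold these genes were read beside them. The 7 markers of the thick ascending limb, the segment of Slc12a1, had 4 higher and 3 lower, a median of 0.00 and a list mean of 11.01 and 11.00 in the WT pools and 11.04 and 11.01 in the Usp2-KO pools. The 6 markers of the distal convoluted tubule, the segment of Slc12a3, had 3 higher and 3 lower. Slc8a1 and Calb1, calcium transport genes that the connecting tubule shares, differed by 0.54 and 0.44, while Pvalb, a calcium-binding protein of the early distal convoluted tubule, differed by -0.08. Neither Slc8a1 nor Calb1 passed by limma without the block (adjusted p = 0.286 each). Over the alternatives their adjusted p ranged from 0.000173 to 0.557 and from 0.00391 to 0.614, the lowest with the littermate block. All 6 markers of the connecting tubule and principal cells were higher, with a median of 0.12 and list means of 10.35 and 10.40 in WT and 10.53 and 10.46 in Usp2-KO pools. Of 5 intercalated cell markers 4 were higher, with a median of 0.25 and list means of 9.12 and 9.10 in WT and 9.30 and 9.29 in Usp2-KO pools. By limma 0 of these 11 markers passed without the block, and 2 of 6 and 3 of 5 were higher at an unadjusted p under 0.05, where 5.22% of all genes were. Among the intercalated markers Atp6v0d2 differed by 0.35, Slc26a4 by 0.30 and Atp6v1g3 by 0.25. Slc4a1 differed by -0.01, and Foxi1 had overlapping groups and differed by 0.06. With the littermate block Atp6v0d2 had an adjusted p of 0.0441 by limma (0.286 without it). Of all 19934 genes 9469 were higher. The part of these cell types in the difference of Cul3 was not tested.

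For other cell types, the 5 proximal tubule markers had a median of 0.02, 3 podocyte markers 0.12, 4 endothelial markers -0.06 and 4 immune markers -0.04. Of the immune markers 1 was higher and 3 were lower. Cd3e, of T cells, had an unadjusted p of 0.00965 by limma and differed by -0.24 and -0.22 in the littermate comparisons. Ptprc differed by 0.11, with both Usp2-KO pools above both WT pools, and Cd68 and Adgre1 had overlapping groups. Cd3e lies on chromosome 9, as Usp2 does, and whether its place bears on its difference was not tested. The 4 adipocyte markers had list means of 7.27 and 7.29 in WT and 6.72 and 7.21 in Usp2-KO pools, and Usp2-KO pool 1 had the lowest. Of these, 3 of 4 were lower in both littermate comparisons, where 5051 of all 19934 genes were. By limma with the littermate block Adipoq and Cidec had an adjusted p of 0.00378 and 0.0171 (0.463 and 0.559 without it). The littermate comparisons were far apart, at -0.83 and -0.12 for Adipoq and -0.80 and -0.04 for Cidec. The blocked p-values rest on the almost common spread that the prior gives, and do not measure agreement of the pairs. Without Usp2-KO pool 1, Adipoq differed by -0.14 and Cidec by -0.05, and Cul3 differed by 0.51. The values are logarithms read without a detection call, so a value above 0 does not show that a marker was expressed.

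The length of a gene also moved with the differences. Across 19852 genes with a known length, the difference correlated with length in the genome at a Spearman rho of 0.19, a description over genes that share the same 4 arrays. The longest quintile of genes had a median difference of 0.02, and in 26.8% of it both Usp2-KO pools lay above both WT pools. The shortest quintile had a median of -0.03 and 10.7%. Of the 10 members, 7 belong to the longest quintile (Cul3, Klhl2, Klhl3, Oxsr1, Slc12a1, Stk39 and Wnk1) and 0 to the shortest. The part of gene length in the members' differences was not tested.

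The genes whose pattern was most like that of Cul3, by the Euclidean distance between log2 values centred on each gene's mean over the 4 arrays, were Vmn1r19, Eea1, Pcm1, Rbm39 and Smc5. Their distances were 0.05, 0.06, 0.06, 0.06 and 0.07 in that order. They were picked for likeness to a gene that is higher in Usp2-KO kidney, so their own differences, from 0.36 for Smc5 to 0.45 for Vmn1r19, are a description. Whether they pass a threshold follows largely from that pick, so no test of them is given. Eea1 encodes a protein of early endosomes, Pcm1 one of centriolar satellites, Rbm39 a splicing factor, Smc5 a chromosome maintenance protein and Vmn1r19 a vomeronasal receptor. With 4 arrays, many genes can share a pattern.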

How the data were processed

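The authors deposited log2 values that they computed by RMA, as the submitters' processing notes state. RMA corrects background, gives all arrays one distribution and summarises each probe set. Software, version and genome build are not given in the sources used here. An Affymetrix whole-transcript array was used, with 300 ng of RNA per pool as input, per the labels.

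Of 28270 rows, 21780 had 1 gene symbol in the platform's annotation, 1617 had several and 4873 were not listed. The row of highest mean per gene left 19934 genes (996 had more rows), unfiltered. RefSeq (GRCm38.p6) matched the identifiers of 21689 rows, and 0 symbols were updated. The genotypes were compared in R 4.3.3 by limma 3.58.1 (lmFit and eBayes with genotype as the term, 6.87 prior degrees of freedom), with Benjamini-Hochberg adjustment over all genes and a threshold of 0.05, and the fit was tested on simulated data. The series' design text pairs the pools. Pools of one number deviated from their group means with a correlation of -0.121 across genes, so the crossed pairing was also run. The members and lists were chosen with earlier results of these data known. Named were all members, Usp2 and up to 4 genes per pathway list by smallest p. Also named were the 5 genes, of those searched, most like the member of smallest p. Rbx1, Nedd8, Cand1, signalosome subunits other than Cops2 and individual markers were picked with their values in view. The alternatives tried are those in the closing section, together with a robust prior, repeated quantile normalization, averaging a gene's rows and testing each row alone. Figures were drawn with matplotlib 3.10.9.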

Additional observations from a re-analysis of the deposited data

How the results depend on the processing

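With 2 pools per genotype, differences of the size seen for most members can go undetected, and a member that did not pass is not thereby shown to be unchanged. In the simulated data, the fit recovered 2.7% of log2 changes of 0.25 and 72% of changes of 0.5. Over the 13 alternatives that give each member a value, 124 of 130 values kept their direction and their side of the threshold. The 5 that turned were close to 0. Wnk4 was at 0.0032 with arrays centred on their medians, and with a pool left out it lay between -0.0205 and 0.0035 (0.0035 without WT pool 2 and 0.003 without the second Usp2-KO pool). Without the second Usp2-KO pool, Klhl3 was at 0.006 (-0.095 to 0.006 over the pools left out) and Cab39 at -0.013 (-0.013 to 0.153). The remaining value was Cul3 with the littermate pools as a block, a fit in which 1 member (Cul3), 1 other gene of the pathway lists (Cops2) and 153 genes in all passed by limma, against 0, 0 and 1 without the block. That block changed no other call at the adjusted threshold among members or pathway lists, and at an unadjusted p under 0.05 it left Cul3 but not Oxsr1. Among other named genes that turned, Cand1 was at -0.0141 with quantile normalization repeated and Gps1 at 0.0072 with arrays centred. With a pool left out, Cand1 ran from -0.04 to 0.071, Cops7a from -0.0665 to 0.0165, Cops4 from -0.0515 to 0.0105, Gps1 from -0.047 to 0.038, Slc4a1 from -0.0445 to 0.0185 and Foxi1 from -0.021 to 0.136. With the crossed pairing, chosen after the data were seen, 1 gene and 0 members passed. The count of all genes was 18 with an intensity trend, where Cul3 had an adjusted p of 0.0745, 7 with a mean log2 value of at least 6, 2 at an adjusted p under 0.10, and 1 to 2 with a pool left out. Leaving out a pool gave 0 members and 0 pathway genes each time by limma, with the lone pool assumed to vary like the others. At an unadjusted p under 0.05, 1 to 3 members passed by limma over the alternatives that keep all pools. The share of all genes under that threshold was counted in the main fit only. The cause of these shifts was not tested.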
